A study of Mus musculus with 23 samples.

Results

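The 2 genes described here, Ppbp and Pf4, encode chemokines best known from platelets, and they make up 2 of the 3826 genes on a targeted expression panel that was read in 23 mouse mammary carcinomas. They were taken by name, as the rows Ppbp and Pf4 of the deposited table. Both were kept by rule, whatever the filter on low counts gave, and are among the 2925 genes kept. The pair was selected on the difference in counts between treated and control tumours, which was already known, so the values of that contrast are a description of the 2 genes and are given without a test. Of the tumours, 11 came from control mice given vehicle and 12 from mice given abemaciclib, an oral drug that blocks the cell cycle kinases CDK4 and CDK6, at 90 mg/kg each day by gavage. All mice, controls included, had been induced with doxycycline at 6 weeks of age and were allocated at random once tumours had formed. Tissue was frozen after the 12th dose. The labels name neither the strain nor the doxycycline-driven transgene and its promoter. The titles number tumours and not animals, so p-values measure the spread between these tumours, which may share animals.

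Chemokines are small secreted proteins that guide leukocytes by binding receptors on their surface. Ppbp (pro-platelet basic protein, also called Cxcl7) is a precursor that proteases trim to a neutrophil attractant, and it carries the glutamate-leucine-arginine (ELR) motif that lets chemokines of its class act through the receptor Cxcr2. Pf4 (platelet factor 4, also called Cxcl4) lacks that motif, binds heparin and related sugar chains tightly, and has been linked to Cxcr3. Megakaryocytes make both, and platelets store them in alpha granules and release them on activation. In mice Pf4 is also transcribed by some tissue macrophages.

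Both genes lie in one cluster of CXC chemokine genes on chromosome 5, all transcribed from the plus strand (GENCODE M21 positions, mm10). Ppbp spans 90768518 to 90770063 and has 3 exons in its annotated transcript. Pf4 begins 2371 bases beyond the end of Ppbp and spans 90772435 to 90773383, also with 3 exons in its first listed transcript. Cxcl5 lies before the pair, and Cxcl3, Cxcl15, Cxcl1 and Cxcl2 follow it. All 7 genes of this cluster are on the panel. The 250 bases before each annotated start are shown because the pair are neighbours read in the same direction whose counts can be compared tumour by tumour. The sequences are from RefSeq, build GRCm38.p6, plus strand, 5′ to 3′, and capitals mark matches to 3 motifs, each searched on both strands. The first is TATAAA, the TATA box. The second is GATAA, the core bound by GATA factors. The third is GGAAG, found in many sites of ETS factors, which reads CTTCC on the opposite strand. The first window is chr5:90768268-90768517 and the second is chr5:90772185-90772434.
Ppbp: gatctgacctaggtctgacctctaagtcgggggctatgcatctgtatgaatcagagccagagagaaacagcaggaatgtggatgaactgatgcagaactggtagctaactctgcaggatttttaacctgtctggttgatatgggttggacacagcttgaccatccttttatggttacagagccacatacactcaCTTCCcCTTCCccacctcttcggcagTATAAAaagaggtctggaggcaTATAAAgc
Pf4: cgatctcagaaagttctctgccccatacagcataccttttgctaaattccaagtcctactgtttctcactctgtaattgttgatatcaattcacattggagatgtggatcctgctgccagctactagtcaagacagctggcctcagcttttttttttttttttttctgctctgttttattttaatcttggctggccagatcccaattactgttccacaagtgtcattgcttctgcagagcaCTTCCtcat
The Ppbp window held TATAAA at 2 places, beginning 30 and 8 bases before the start, and the Pf4 window held none. GGAAG was found as CTTCC at 2 places before Ppbp, 56 and 50 bases from the start, and at 1 place before Pf4, 9 bases from it. GATAA was in neither window. No matches overlapped. Among 32851 annotated start windows of this length, 12.4% held TATAAA, 64.1% held GGAAG and 22.6% held GATAA, on either strand. A match is a match of letters and was not tested as a binding site.

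Library totals were 3044380 to 4492736 counts for control tumours and 2756919 to 4990391 counts for abemaciclib tumours, with at least 1 count for 3242 to 3374 and for 3261 to 3371 genes. Rn7sk, a small nuclear RNA, took 6.62 to 23.2% of the reads of controls and 6.49 to 16.4% of those under abemaciclib. Keratins and adhesion genes of luminal mammary epithelium took many reads, with a mean of 5546 counts for Krt18 and 7743 for Cdh1, in tissue labelled as mammary tumour. The panel reads genes through amplified pieces (amplicons) that may differ in yield, so a level can be compared between tumours and not between genes.

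Ppbp was read 1 to 12 times in each control tumour and 4 to 44 times in each abemaciclib tumour, and it lay higher in the abemaciclib tumours. In control tumours 1 to 11 the raw counts were 8, 6, 10, 2, 4, 5, 12, 12, 7, 11 and 1. In abemaciclib tumours 1 to 12 they were 9, 29, 38, 21, 4, 22, 4, 44, 17, 25, 11 and 14. The control tumours stayed at or below 12 counts, and 8 of the 12 abemaciclib tumours exceeded every one of them. Abemaciclib tumours 5 and 7, at 4 counts each, sat below the control median of 7, while tumours 8 and 3 stood highest. In CPM, reads scaled to a common library size, the control tumours ran from 0.256 through a median of 1.53 to 3.51, with a mean of 1.73 ± 0.963 (SD, n = 11). The abemaciclib tumours ran from 1.12 through a median of 4.99 to 10.5 CPM, with a mean of 4.81 ± 2.71 (SD, n = 12). The groups overlapped in 4 abemaciclib tumours, and no control tumour reached the abemaciclib median. The fitted difference was 1.48 on the log2 scale (SE 0.363), a 2.79-fold higher level with abemaciclib, which placed Ppbp at rank 9 of 2925 genes ordered by fold change.

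Pf4 was read more deeply and differed less. Control tumours 1 to 11 gave 8, 27, 13, 23, 29, 48, 35, 31, 38, 47 and 31 raw counts. Abemaciclib tumours 1 to 12 gave 16, 58, 31, 69, 22, 49, 44, 46, 66, 25, 70 and 60. By raw count 6 abemaciclib tumours exceeded every control tumour, and after scaling 3 did, tumours 9, 11 and 12, with the other 9 inside the control range. Control tumours 1 and 3 were the lowest of all 23. In CPM the control tumours ran from 2.31 through 6.91 to 14.5, with a mean of 7.37 ± 3.41 (SD, n = 11). The abemaciclib tumours ran from 5.47 through 12.6 to 24.9, with a mean of 12.0 ± 5.74 (SD, n = 12). Of the 12 abemaciclib tumours, 8 lay above the control median. The fitted difference was 0.70 on the log2 scale (SE 0.285), or 1.62-fold, at rank 92 of 2925.

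**Figure D1:**
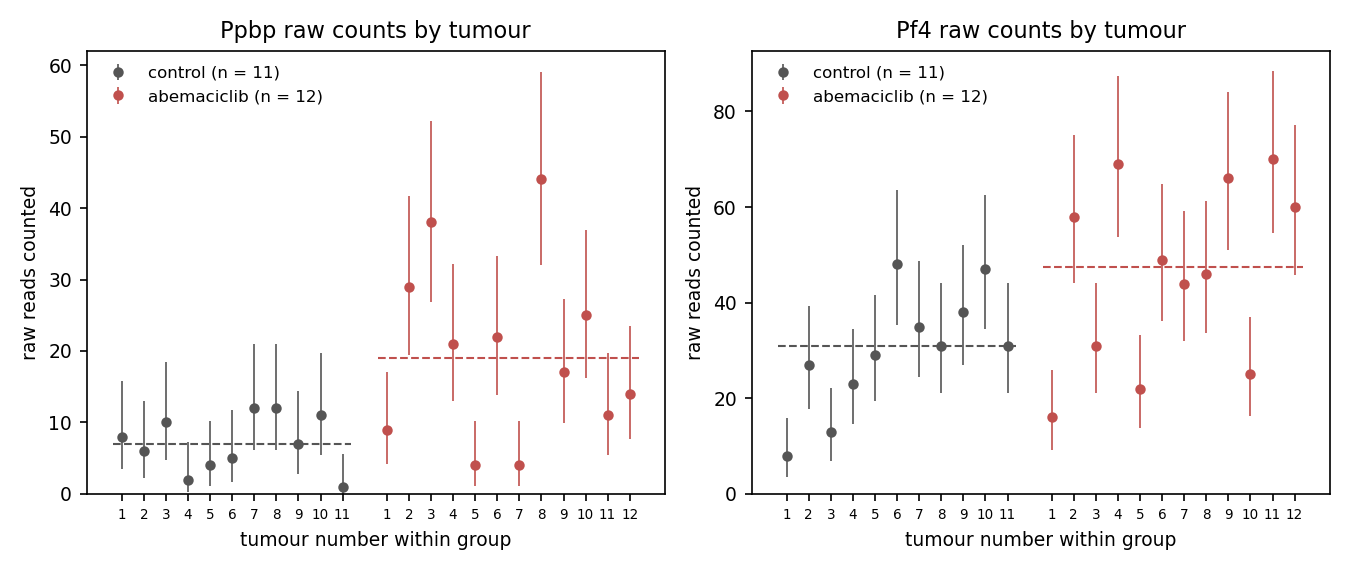
Raw reads counted for Ppbp (left) and Pf4 (right) in each tumour, numbered within its group, with vertical bars for the exact Poisson 95% interval of the count and dashed lines for group medians. Ppbp medians are 7 in control and 19 in abemaciclib tumours, and Pf4 medians are 31 and 47.5, with overlapping groups for both genes.

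Neither gene separated the groups without overlap, and over the 2925 genes tested 0% did. By edgeR's quasi-likelihood test with Benjamini-Hochberg adjustment, 0% of all genes passed at an adjusted p under 0.05, while 13.4% had an unadjusted p under 0.05. DESeq2's Wald test passed 2.05% and limma-voom with quality weights 4.34% of the same genes. Because this contrast chose the pair, nothing is read from these shares about Ppbp or Pf4.

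Counting error was a larger part of the spread for Ppbp in control than in abemaciclib tumours. Its coefficient of variation between tumours was 55.8% in control, where counting alone at the mean count gives 37.6%, and 56.3% in abemaciclib tumours, where counting gives 22.5%. The single Ppbp read in control tumour 11 has an exact Poisson 95% interval of 0.0253 to 5.57 counts, and the 44 reads in abemaciclib tumour 8 one of 32.0 to 59.1. For Pf4 the variation was 46.2% in control and 47.8% in abemaciclib tumours, against 18.3% and 14.7% from counting. These intervals cover counting error only, since amplicon reads carry no molecular identifiers. The mean count of 13.7 for Ppbp exceeded that of 1.5% of tested genes, and the 38.5 of Pf4 exceeded that of 10.3%.

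Within a group no relation between Ppbp and Pf4 was detectable at these counts. Across the 11 control tumours Spearman's rho between Ppbp and Pf4 in log2 CPM was 0.027 (Pearson's r -0.083), and across the 12 abemaciclib tumours it was -0.098 (Pearson's r 0.093). The 95% intervals of rho by Fisher's z, -0.582 to 0.617 and -0.636 to 0.504, include moderate relations of either sign. Without the 2 tumours farthest from the Ppbp median, r was -0.072 in control and -0.081 in abemaciclib tumours. Abemaciclib tumours 3 and 10 had high Ppbp beside low Pf4, at 7.28 and 5.74 CPM of Ppbp and 5.94 and 5.74 CPM of Pf4. Abemaciclib tumours 7 and 11 showed the opposite, with 1.21 and 2.64 CPM of Ppbp beside 13.3 and 16.8 CPM of Pf4. The number of Ppbp reads per Pf4 read therefore varied widely, from 0.0323 through a median of 0.222 to 1 in control tumours and from 0.0909 through 0.377 to 1.23 in abemaciclib tumours. The 2 amplicons may differ in yield, so only the change of this ratio between tumours can be interpreted. Its log2 mean, with 0.5 added to each count, was -2.11 ± 1.28 (SD, n = 11) for controls and -1.38 ± 1.13 (SD, n = 12) under abemaciclib.

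**Figure D2:**
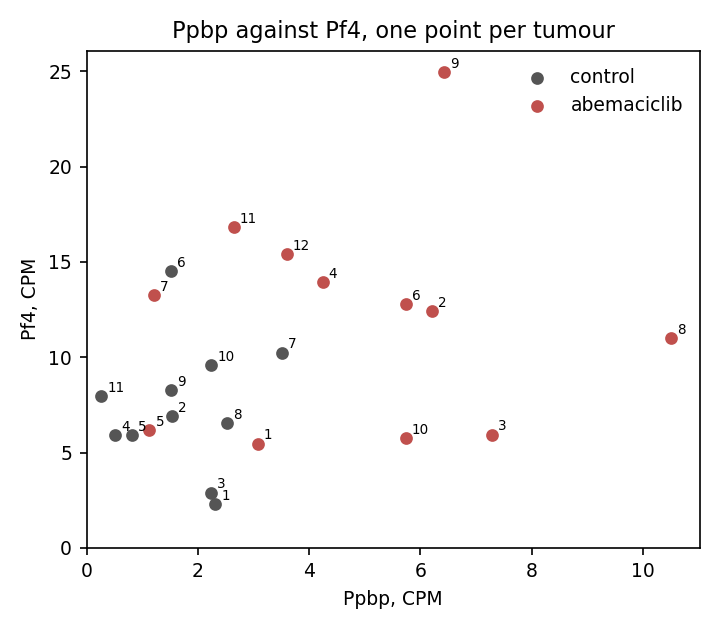
Pf4 against Ppbp in CPM of the scaled library, 1 point per tumour, labelled with the tumour's number and coloured by group. Abemaciclib tumour 8 is highest for Ppbp at 10.5 CPM, tumour 9 is highest for Pf4 at 24.9 CPM, and within each group the points show no common slope.

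The genes whose levels most resembled each member were not the other member. Likeness was Spearman's rho of log2 CPM over the 23 tumours after subtracting each group's mean, among 2924 other genes, and is given as a description. With Ppbp, rho was above 0.6 for 106 of these genes and below -0.6 for 130, so its closest genes are among many. With Pf4 it was above 0.6 for 14 and below -0.6 for 9. For Ppbp the 6 closest included Pex19 at 0.83, Maz at 0.76, Rae1 at 0.75, Cdk4 at 0.75 and Vangl2 at 0.75. Pex19 encodes a peroxisome import factor, Maz a zinc-finger transcription factor, Rae1 an RNA export factor, Cdk4 a kinase inhibited by abemaciclib and Vangl2 a planar polarity protein. Inside each group Pex19 had a rho with Ppbp of 0.80 in control and 0.86 in abemaciclib tumours. These are the tumours over which it was picked, so high values follow from that choice. The mean level of Pex19 itself was 143 CPM across controls and 128 CPM under abemaciclib. For Pf4 the 6 closest were Polr2k at 0.86, Mknk1 at 0.71, Tgfb1i1 at 0.70, Selp at 0.68, Fabp4 at 0.66 and Setd1b at 0.66. Polr2k encodes a small subunit shared by RNA polymerases, Mknk1 a kinase of the translation factor eIF4E, Tgfb1i1 a focal adhesion protein, Selp P-selectin, Fabp4 a fatty acid carrier of adipocytes and capillaries, and Setd1b a histone methyltransferase. Pf4 itself stood at place 1467 in the order for Ppbp, with a rho of -0.0089, against a median of -0.0069 over all genes. All of these values share libraries and scaling factors. Spearman's rho between Ppbp and the log of the library total was -0.26 in control and 0.070 in abemaciclib tumours, and for Pf4 it was -0.027 and 0.049. With the share of reads from Rn7sk it was -0.036 and -0.17 for Ppbp and 0.42 and -0.0070 for Pf4.

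Selp is the gene in this group that platelets are known for. P-selectin is an adhesion receptor stored in platelet alpha granules and in the storage bodies of endothelial cells, and it reaches the surface on activation. Its counts ran from 9 through a median of 16 to 74 in control and from 11 through 39 to 110 in abemaciclib tumours, with 10 of 12 abemaciclib tumours above the control median. Abemaciclib tumour 9 was the highest for both Selp, at 41.6 CPM, and Pf4. Spearman's rho with Pf4, a likeness for which Selp was picked over these same tumours, was 0.79 in control and 0.52 in abemaciclib tumours. Polr2k, picked in the same way, had 0.82 and 0.84. Selp differed by 0.87 between groups on the log2 scale (SE 0.475, adjusted p = 0.435 by edgeR), or by 0.55 without abemaciclib tumour 9. Of the 5 platelet and megakaryocyte markers that could be tested, Selp included, 2 were positive and 3 negative.

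**Figure D3:**
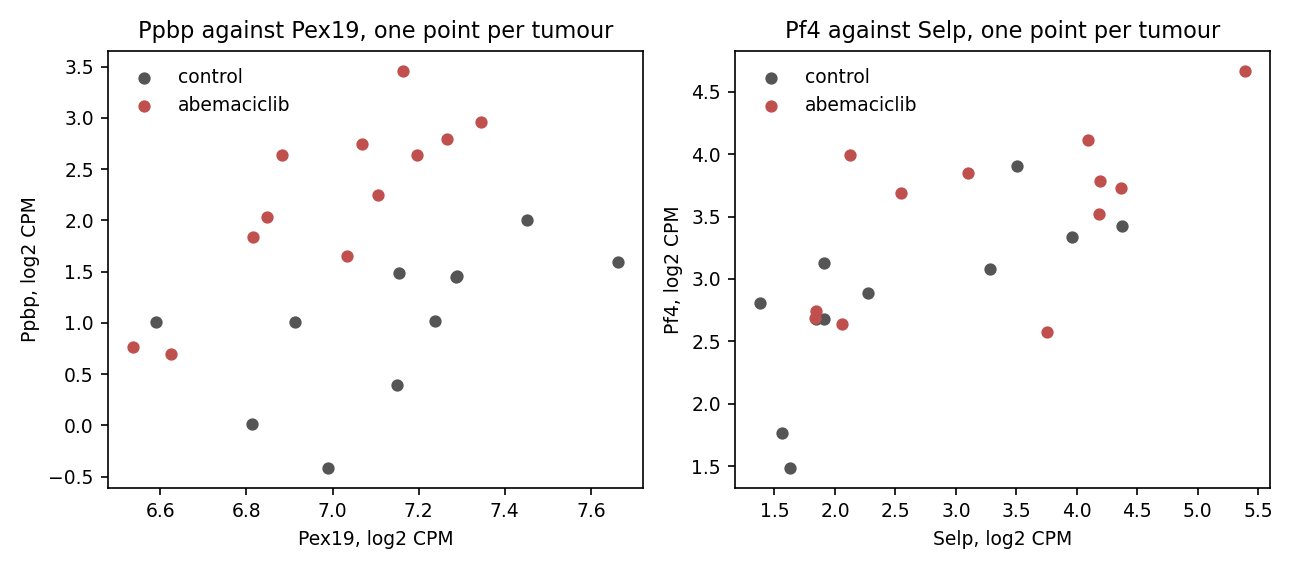
Left, Ppbp against Pex19, and right, Pf4 against Selp, in log2 CPM with 1 point per tumour coloured by group. Ppbp climbs with Pex19 in both groups (rho 0.80 and 0.86), and Pf4 climbs with Selp (rho 0.79 and 0.52), with the Ppbp values of most abemaciclib tumours offset upwards. Pex19 and Selp were picked for their likeness over these same tumours. Pex19 was the gene most like Ppbp, while Polr2k was closer to Pf4 than Selp was (rho 0.86 against 0.68 over the 23 tumours).

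Marker lists for the cells that could carry these transcripts were only partly on the panel. Of 25 platelet and megakaryocyte markers 8 were present, and Gata1, a transcription factor of that lineage, was nearly absent, at 0 in 22 of 23 tumours and at 1 count in the other. Of the 5 that could be tested, 2 were positive, Selp among them, and 3 negative, with a median log2 difference of -0.0092. The list's summed level was 2185 to 4104 CPM in control and 1778 to 3374 CPM in abemaciclib tumours, almost all of it Cd9, a membrane protein of many cell types, and Thbs1. Summed levels of this and the other lists were scaled to library totals alone, unlike the CPM of single genes. Itga2b, Gp9, S100a9, Cd163 and Mrc1 were not found under these names on the panel. The erythroid list had 1 of 12 markers, Epor, at 0 to 8 counts, so the blood content of the pieces is not measured by this panel. The neutrophil list, with 13 of 22 markers, summed to 8821 to 39715 CPM in control and 24272 to 53809 CPM in abemaciclib tumours, mostly Lcn2, which epithelium also makes. Of its 8 tested genes 6 were positive, where 51.1% of all tested genes were. At an unadjusted edgeR p under 0.05, 3 of the 8 were higher and 0 lower, where 7.59% of all genes were higher and 5.81% lower. DESeq2 and limma-voom passed 0 of the 8, where they passed 2.05% and 4.34% of all genes. The monocyte and macrophage list, with 11 of 24, summed to 1878 to 3520 and 2089 to 3925 CPM. Of its 10 tested genes 9 were positive, where 51.1% of all tested genes were. At an unadjusted p under 0.05, 5 of the 10 were higher and 1 lower, where 7.59% of all genes were higher and 5.81% lower. The lower gene was Ccr2, a receptor of circulating monocytes, at -0.72 (SE 0.276, adjusted p = 0.214 by edgeR). Among the higher were C1qa, a complement gene, at 0.47 (SE 0.133), and Msr1, a scavenger receptor, at 0.73 (SE 0.168). DESeq2 passed 3 of the 10, where it passed 2.05% of all genes, and limma-voom 3, where it passed 4.34%. By both these were Msr1 (adjusted p = 0.00512 by DESeq2 and 0.0187 by limma-voom), C1qa (0.0296 and 0.0130) and Fcgr3 (0.0220 and 0.0401). By edgeR none passed, with adjusted p of 0.0578, 0.111 and 0.0912. The part of these cell markers in the higher Ppbp and Pf4 of the abemaciclib group was not tested, and in bulk tissue more cells of a type and more RNA per cell cannot be told apart.

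Scores over 4 of these lists, each the mean centred log2 CPM of members with a mean count of at least 10, were related to the pair within each group in 16 comparisons. After Benjamini-Hochberg adjustment, 2 passed by Spearman's rho. Pf4 rose with the platelet and megakaryocyte score in control tumours (rho 0.79, two-sided permutation p = 0.00565, adjusted 0.0452, Pearson's r 0.70, permutation p = 0.0170, adjusted 0.136, n = 11), with an r of 0.61 without the 2 tumours farthest from the score's median. In abemaciclib tumours the same relation had a rho of 0.56 (permutation p = 0.0634, adjusted 0.254) and an r of 0.67. Within that score Selp had a rho of 0.79 with Pf4 in control tumours, Thbs1 0.33, Vwf 0.25, Itgb3 -0.045 and Cd9 -0.49. With list members limited to a mean count of at least 50, which leaves out Selp at 37.2, the rho in control tumours was 0.26 (permutation p adjusted 0.692). Ppbp rose with the neutrophil score in abemaciclib tumours (rho 0.80, two-sided permutation p = 0.00292, adjusted 0.0452, Pearson's r 0.60, permutation p = 0.0405, adjusted 0.162, n = 12), with an r of 0.52 without the 2 farthest tumours. In control tumours that rho was -0.30 (permutation p = 0.372, adjusted 0.759), and the difference between the groups was not tested. The genes of the neutrophil score did not share the relation: in abemaciclib tumours Mmp9 had a rho of 0.71 with Ppbp, Cxcr2 0.42 and Mmp8 0.39, and Lcn2 had -0.77 and S100a8 -0.41. With the mean count limited to at least 50, which leaves out Cxcr2 and Mmp8, the rho was 0.38 (permutation p adjusted 0.519). DESeq2 size factors gave 0.76 for Pf4 and 0.73 for Ppbp, each with a permutation p adjusted to 0.0638, so both calls depended on the settings. Ppbp and the macrophage score had a rho of -0.71 in abemaciclib tumours (permutation p = 0.0120, adjusted 0.0638), and Pf4 and that score had 0.19 in control and 0.20 in abemaciclib tumours, neither past the threshold.

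Among the other ELR chemokines of the same cluster, which share the receptor Cxcr2 with the Ppbp product, 3 of 5 could be tested, and 2 were positive. Cxcl2, which recruits neutrophils and lies at the far end of the cluster, averaged 2.37 ± 0.589 CPM (SD, n = 11) across controls and 4.86 ± 2.34 CPM (SD, n = 12) under abemaciclib, a log2 difference of 1.03 (SE 0.264, adjusted p = 0.0823 by edgeR, 0.0296 by DESeq2 and 0.142 by limma-voom), on 4 to 30 counts. Cxcl5, the neighbour before Ppbp, was at 0.45 (SE 0.575, adjusted p = 0.778), a value that turned to -0.26 without abemaciclib tumour 10. Cxcl1 was at -0.03 (SE 0.287, adjusted p = 0.976). Cxcl3 and Cxcl15, the neighbours after Pf4, were set aside as too low, with medians of 5 and 2 counts across controls and 8 and 2 under abemaciclib. The median over the 3 tested genes was 0.45 beside 0.0055 over all tested genes, and 1 of 3 had an unadjusted p under 0.05 in the higher direction, where 7.59% of all genes did and 5.81% did in the lower direction. The Cxcl2 counts of up to 30 are as low as those of Ppbp, and a difference between genes in this cluster was not tested.

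Of the CXC chemokines without the motif, the class of Pf4, 5 of 7 on the panel could be tested and 4 were positive, with a median of 0.96. Cxcl9 and Cxcl10, chemokines induced by interferon that act through Cxcr3, were at 3.16 (SE 0.834) and 2.66 (SE 0.796), with adjusted p of 0.0872 and 0.127 by edgeR. Those values rested on abemaciclib tumours 3 and 10, and without them, a choice made after seeing the data, Cxcl9 was at 0.58 and Cxcl10 at 0.018. The same tumours had Pf4 at 5.94 and 5.74 CPM, inside the control range. Cxcl14, a chemokine of epithelium and skin, was at 0.96 (SE 0.448, adjusted p = 0.347), or 0.28 without abemaciclib tumour 9.

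Reads of the CXC receptors were few. Cxcr2, the receptor for ELR chemokines, had 4 to 36 counts across controls and 5 to 41 under abemaciclib, a log2 difference of -0.17 (SE 0.343, adjusted p = 0.879 by edgeR). Cxcr3 had 0 to 4 and 0 to 3 counts and Cxcr1 was at 0 in 21 of 23 tumours, and neither could be tested. Of the 4 tested receptors and binding partners, 3 were positive, with a median of 0.52. Lrp1, a large endocytic receptor of many ligands, averaged 334 ± 76.5 CPM (SD, n = 11) across controls and 472 ± 63.8 CPM (SD, n = 12) under abemaciclib. Its log2 difference was 0.50 (SE 0.114), with all 12 abemaciclib tumours above the control median, an adjusted p of 0.0578 by edgeR, 0.00512 by DESeq2 and 0.0166 by limma-voom. Thbd, the endothelial receptor thrombomodulin, was at 0.55 (SE 0.277, adjusted p = 0.398), and Darc, the atypical chemokine receptor now named Ackr1, at 0.57 (SE 0.464, adjusted p = 0.638).

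Other platelet granule products lay mostly on the positive side, and platelet surface receptors on both sides. Of 14 tested granule and adhesion products 12 were positive with a median of 0.24, where 51.1% of all genes were positive. Several of the 12 lay within 1 SE of 0, such as Sparc at 0.046 (SE 0.151), Pdgfa at 0.062 (SE 0.173), Fn1 at 0.097 (SE 0.288) and Vwf at 0.10 (SE 0.289). At an unadjusted p under 0.05, 1 of the 14 was higher, a share near the 7.59% of all genes. That gene was Hgf, hepatocyte growth factor, at 0.55 (SE 0.203, adjusted p = 0.210 by edgeR, 0.119 by DESeq2 and 0.0452 by limma-voom). Tgfb1, a growth factor that platelets store, was at 0.25 (SE 0.127, adjusted p = 0.399). Scaling to library totals alone lowered the median of all genes from 0.0055 to -0.12, and 9 of the 14 were then positive. Of 5 tested platelet surface receptors 2 were positive, with a median of -0.0092. Cd36, a thrombospondin and fatty acid receptor also found on adipocytes, macrophages and capillaries, averaged 28.5 ± 18.6 CPM (SD, n = 11) across controls and 76.6 ± 70.2 CPM (SD, n = 12) under abemaciclib, a log2 difference of 1.43 (SE 0.431, adjusted p = 0.127 by edgeR, 0.0496 by DESeq2 and 0.0815 by limma-voom). Itgb3, the beta chain of the platelet fibrinogen receptor, was at -0.45 (SE 0.253, adjusted p = 0.459), and F2r, the thrombin receptor, at 0.33 (SE 0.190, adjusted p = 0.468). Of 10 megakaryocyte transcription and growth factors on the panel, 7 were too low to test. Runx1 was at 0.28 (SE 0.147, adjusted p = 0.418), Meis1 at 0.93 (SE 0.724, adjusted p = 0.616), or 0.031 without abemaciclib tumour 3, and Kitl at 0.11 (SE 0.198, adjusted p = 0.868), which turned to -0.027 with library totals. Over the 6 lists edgeR called 0 genes, as over the whole panel.

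**Figure D4:**
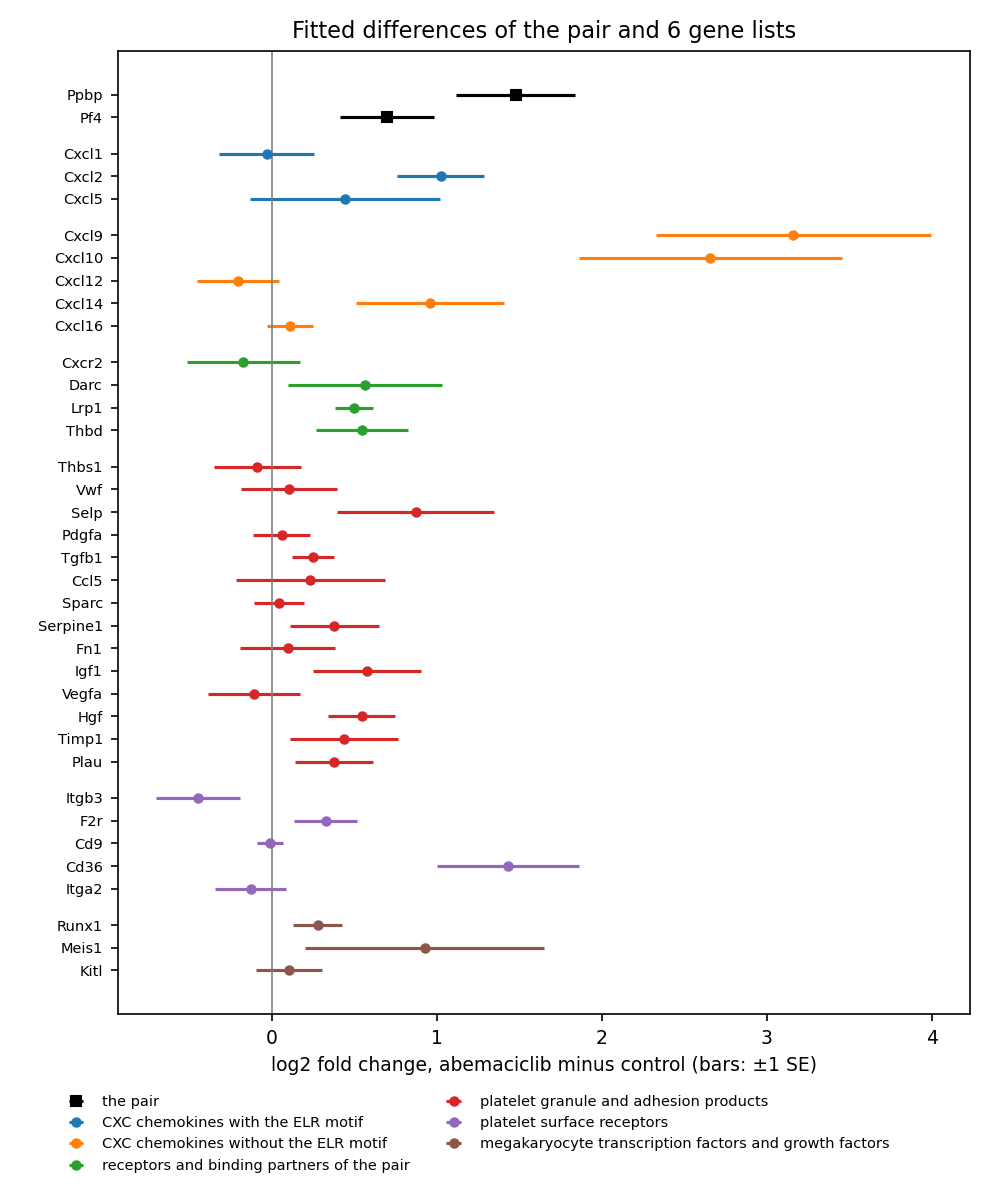
Fitted log2 fold changes, abemaciclib minus control, for Ppbp and Pf4 (black squares) and for the tested genes of the 6 lists (coloured circles), with bars of 1 SE. Ppbp lies at 1.48 and Pf4 at 0.70, Cxcl9 and Cxcl10 lie farthest right with wide bars, and the platelet surface receptors fall on both sides of 0.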

How the data were processed

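The authors deposited 1 table of raw counts, with 1 row per gene and 1 column per tumour, per the file headers. RNA was amplified with a custom Ion AmpliSeq panel, per the labels' protocols, and the submitters' processing notes name mm10 as the build. For the aligner, counter and amplicon positions, nothing is stated in the sources used here. Counts were fitted for all genes in R 4.3.3 with edgeR 4.0.16 (filterByExpr, TMM scaling, glmQLFTest, two-sided, Benjamini-Hochberg at 0.05). The SE is the fitted log2 fold change divided by the root of F. Log2 CPM used a prior count of 2. Correlations of scores used 100000 permutations. Alternatives were other scalings, filters, DESeq2 1.42.0, limma-voom (limma 3.58.1), a replicate block and leaving out each tumour. Ppbp and Pf4 were exempt from each filter, also from that on a mean count of at least 50.

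The members and gene lists were chosen with earlier results of these data known. Genes are named by a rule: the pair, the 6 genes most like each, up to 3 per pathway list with the smallest p, the 3 most abundant per marker list, and 8 receptors and markers. Some genes that the rule names are not reported here. Other genes named, such as Msr1, Mmp8, Mmp9, Vwf and Ccr2, were chosen after their values were seen. Pathway gene values without single tumours come from fits with no filter. The fit was tested on simulated data. No 2 tumours agreed within sampling noise (smallest chi-square per degree of freedom 18.4 over 253 pairs). The marker lists for endothelium, mast cells and lymphocytes had 10, 1 and 4 tested genes, with median log2 fold changes of 0.098, 0.11 and 0.35, and luminal epithelium 11 with -0.047.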

Additional observations from a re-analysis of the deposited data

How the results depend on the processing

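The log2 differences kept their sign in each alternative run. Ppbp ranged from 1.21 to 1.67 over 11 alternatives and from 1.32 to 1.62 with single tumours left out, and Pf4 from 0.51 to 0.83 and from 0.56 to 0.84. The low ends came without abemaciclib tumours 3 and 8 for Ppbp and without control tumours 1 and 3 for Pf4, sets chosen after seeing the data. Spearman's rho between the pair ranged from -0.21 to 0.21 in control and from -0.28 to 0.045 in abemaciclib tumours with 1 tumour left out.

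The count of 0 genes called over the panel became 1 with library totals, 60 with DESeq2 and 127 with limma-voom. It was 93 without abemaciclib tumours 3 and 10 and 2 without control tumours 1 and 3. Leaving out single tumours gave 0 to 47: 47 without abemaciclib tumour 10, 30 without 2, 10 without 3, 1 without 5 or 9, and 9, 2 and 2 without control tumours 6, 5 and 1. The cause was not tested. The 2 score relations called became 0 with DESeq2 size factors and 0 with list members at a mean count of at least 50, and rho of Pf4 with the neutrophil score in abemaciclib tumours turned from 0.098 to -0.091 in the latter.

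Same-numbered tumours did not deviate together (correlations -0.43 to 0.45, 2 of 11 best with their own number). The replicate block over tumours 1 to 11 gave 0 genes, 1.49 for Ppbp (SE 0.356) and 0.65 for Pf4 (SE 0.226). Without the block the same tumours gave 1.51 (SE 0.372) and 0.66 (SE 0.293). Of the pair, depth limits Ppbp more, at 1 to 44 counts.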
